A study of Mus musculus with 12 samples.

Results

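The BCL2 family sets whether a cell survives or undergoes mitochondrial apoptosis, and 10 of its mouse genes are described here in dendritic cells exposed to bacterial lipopolysaccharide (LPS) with and without an inhibitor of NF-κB. The members were taken by gene symbol from the 55335 genes of the deposited tables, with earlier results of these data known. They were Bcl2, Bcl2l1, Bcl2a1b, Bcl2a1d and Mcl1, which encode pro-survival proteins, Bcl2l11, Bbc3, Pmaip1 and Bid, which encode BH3-only proteins, and Bax, which encodes a pore-forming effector. All 10 passed the low-count filter and were among the 14357 genes tested.

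RNA-seq was performed on bone marrow-derived dendritic cells (BMDCs) of C57BL/6 mice carrying CreER and wild-type Ctcf, which served as the littermate controls of a Ctcf knockout. Bone marrow was cultured for 6 days with GM-CSF and the floating cells were enriched for CD11c with magnetic beads. The 4 groups of 3 libraries were untreated cells (WT), cells given LPS at 100 ng/ml for 3 h (WTL), cells given JSH-23 at 100 µM for 3 h (WT + JSH23), and cells given JSH-23 for 3 h and then LPS for 3 h (WTL + JSH23). JSH-23 is a small molecule used to keep RelA, a subunit of NF-κB, out of the nucleus. Whether WT and WTL received solvent is not stated, nor whether WT + JSH23 cells were kept as long as the cells given both agents. By the study's account, tamoxifen was added to the cultures to delete Ctcf in knockout cells and not in wild-type ones. Whether the wild-type cultures also received it is not clear from that account. The study describes its 3 RNA-seq replicates per condition as biological, and how many mice stand behind a library is not given.

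Total expected counts ranged from 24664724 to 34837847 per library. WTL + JSH23 replicate 3 stood apart from the other libraries of its group: the chi-square per degree of freedom of its counts against them was 8.19 and 9.12, beside 2.32 to 4.50 for all other pairs of replicates. Without it, 10, 7, 5, 6 and 8 members passed in the 5 comparisons below, beside 10, 8, 6, 6 and 6 with it, and the calls of Mcl1, Bax and Bid that rest on it are given with and without it. The dendritic cell markers were present in all 4 groups, with a summed level of 10 genes between 20340 and 23330 TPM per library (a level per library that allows for transcript length). Macrophage markers were also present, at 1853 to 2747 TPM summed over 10 genes, and neutrophil markers at 172 to 226 TPM. Markers of T and NK cells (at most 6.83 TPM summed), B cells (at most 1.12 TPM) and erythroid cells (at most 0.46 TPM) were near 0. Mast cell and basophil markers reached at most 21.5 TPM, with Mcpt4 and Tpsb2 at 0 in all groups. The lists hold different genes, so their sums do not give the proportions of the cell types. In bulk RNA of this kind, fewer cells of a type and less RNA per cell cannot be told apart.

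Pro-survival BCL2 proteins sit on the outer mitochondrial membrane and hold BAX and BAK in check. BH3-only proteins are made or released under stress or upon withdrawal of growth signals, bind the groove of the pro-survival proteins, and thereby free BAX and BAK to form pores through which cytochrome c escapes and activates caspases. In myeloid cells the Bcl2a1 genes and Bcl2l1 are known targets of NF-κB, whereas MCL1 is controlled largely through its rapid turnover. Dendritic cells are short-lived after activation, and BIM, the product of Bcl2l11, is known to limit their lifespan.

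Measured per length, Bcl2a1b was the most abundant member in untreated cells, at 1402 ± 1.69 TPM (SD, n = 3), ahead of Bcl2a1d at 852 ± 18.1 and Mcl1 at 445 ± 2.08 TPM. Bax, at 196 ± 7.28 TPM, and Pmaip1, at 88.9 ± 4.21 TPM, came next. Bcl2l11, at 39.4 ± 1.50 TPM, Bcl2l1, at 27.5 ± 2.03 TPM, and Bbc3, at 19.9 ± 1.91 TPM, were lower. Bid, at 7.40 ± 0.641 TPM, and Bcl2, at 1.48 ± 0.210 TPM, were the least abundant, and no neighbours in this order overlapped between libraries. With LPS, Bcl2l1 took the fifth place at 175 ± 4.30 TPM, next to Bax at 181 ± 1.62 TPM, and Pmaip1 moved to the seventh place at 34.1 ± 2.10 TPM. In WT + JSH23 the order was that of WT, but the libraries of Bbc3 (16.7 to 20.3 TPM) and Bid (15.4 to 18.2 TPM) overlapped there. In WTL + JSH23, Bid (15.3 to 20.5 TPM) stood above Bbc3 (9.50 to 12.2 TPM) with no overlap.

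Each member was then compared between groups with edgeR's quasi-likelihood test on all 12 libraries, and passing means an adjusted p under 0.05 after Benjamini-Hochberg adjustment over all genes tested. Without JSH-23, LPS changed all 10 members, 5 upward and 5 downward, in a comparison where 65.7% of all genes passed (31.0% higher and 34.7% lower). Past 2-fold, 4 members were higher (Bcl2l1, Bcl2l11, Bcl2a1b and Bcl2a1d) and 1 was lower (Pmaip1), against 7.36% and 9.09% of all genes. Bcl2a1b and Bcl2a1d are near-identical copies with closely matching values (Pearson's r = 0.996 over the 12 libraries). Member counts here and below thus hold 2 closely tied entries. With total counts or TPM, Bcl2a1b (0.96 and 0.94 on the log2 scale) and Bcl2a1d (0.96 and 0.94) stayed below 2-fold and Bbc3 went past it (-1.14 and -1.08). The WT and WTL libraries did not overlap for 10 of 10 members, against 69.9% of all genes. With JSH-23 present, LPS changed 8 members, 5 higher and 3 lower, against 54.5% of all genes in either direction (27.4% higher and 27.1% lower). Past 2-fold, Bcl2l1 and Bcl2l11 were higher and 0 members lower, against 5.85% and 4.49%, and the libraries of 6 members did not overlap, against 59.1%. The median log2 change of the members was 0.05 without and 0.14 with JSH-23, beside -0.05 and -0.02 for all genes tested.

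JSH-23 in LPS-treated cells lowered 5 members and raised 1, against 24.2% and 24.5% of all genes (48.7% in either direction). JSH-23 given alone lowered 4 members and raised 2, against 22.1% and 18.8% of all genes (41.0% in either direction). The libraries of 6 members did not overlap in each of these comparisons, against 54.8% of all genes under LPS and 51.5% without it. Past 2-fold, Bid was the single member higher in either comparison, against 3.75% of all genes under LPS and 2.43% without LPS, and 0 members were lower past 2-fold, against 3.25% and 2.94%. The LPS change with JSH-23 differed from that without it for 6 members by the interaction test, 4 with a lower and 2 with a higher value, against 8.44% and 9.54% of all genes. The difference passed 2-fold for 0 members, against 0.933% of all genes higher and 0.404% lower. WTL + JSH23 and WT + JSH23 libraries carry other replicate numbers than WT and WTL libraries, and whether they were cultured and sequenced together is not stated. JSH-23 and any such difference therefore cannot be told apart in the 2 JSH-23 comparisons. The same holds in the interaction test for any difference in the LPS response between the 2 sets of libraries.

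**Figure D1:**
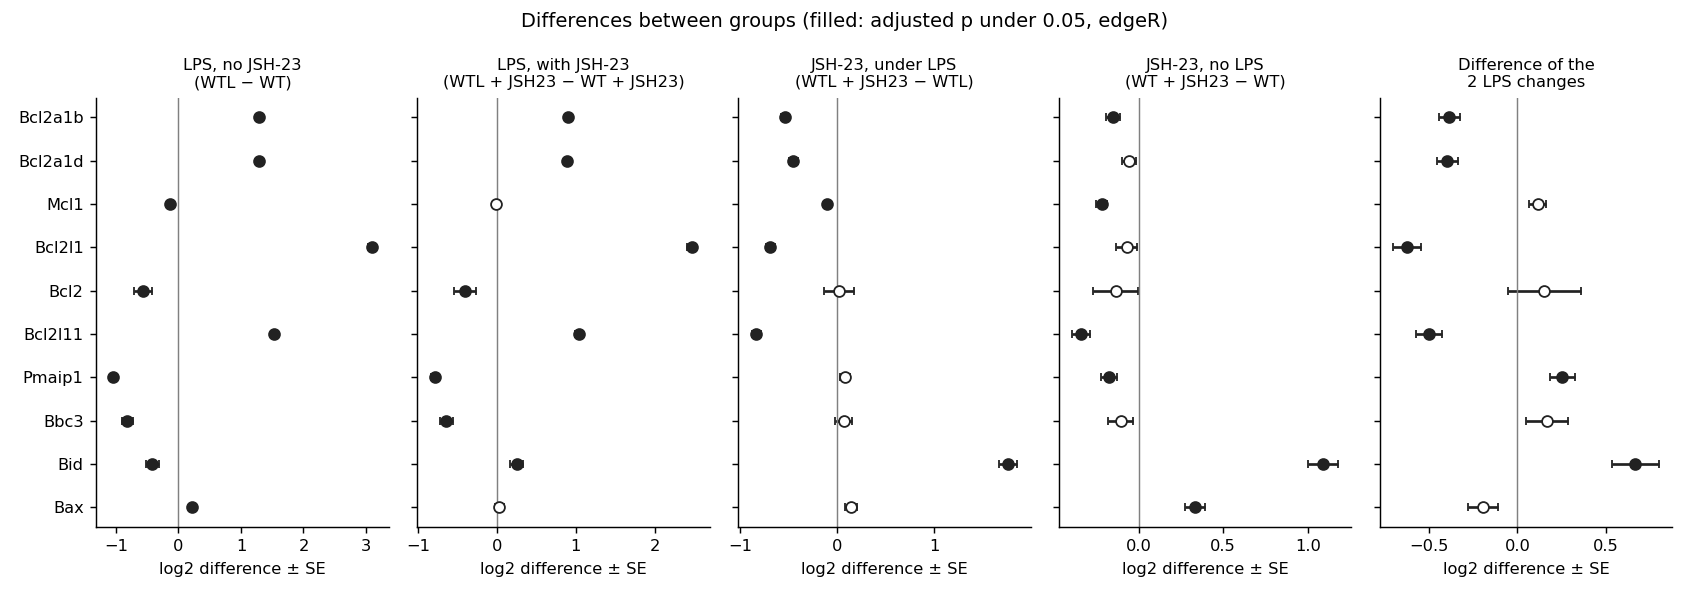
Log2 difference (x axis, ± SE) of each of the 10 members (y axis) in the 4 pairwise comparisons and in the difference of the 2 LPS changes, with filled points for adjusted p under 0.05. Bcl2l1 lies farthest right in both LPS panels (3.09 and 2.47) and Bid farthest right in both JSH-23 panels (1.76 and 1.09); the Bax point of the first panel and the Mcl1 point of the third change sign when libraries are scaled by total counts.

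Markers of cell types also passed in these comparisons. Of all genes tested, 31.0% were higher and 34.7% lower with LPS alone. With JSH-23 the shares were 24.5% and 24.2% under LPS, and 18.8% and 22.1% without LPS. Several marker counts lie near these shares, among them the 3 of 9 macrophage markers higher with LPS alone. With LPS alone, 7 of 10 dendritic cell markers tested were higher and 2 lower, 3 of 9 macrophage markers were higher and 5 lower, and 4 of 6 neutrophil markers were higher. The summed mast cell and basophil markers were 11.0 to 13.9 TPM in WT and 19.4 to 21.5 TPM in WTL. Of 9 macrophage markers tested, 8 were lower with JSH-23 under LPS and 7 without LPS, where 1 was higher, and their summed level was 1853 to 1900 TPM in WT + JSH23 against 2410 to 2529 TPM in WT, and 2251 to 2337 TPM in WTL + JSH23 against 2694 to 2747 TPM in WTL. Neutrophil markers were lower with JSH-23 under LPS for 6 of 6 tested, at 172 to 190.5 TPM summed against 218 to 226 TPM, and for 1 of 6 without LPS. Dendritic cell markers were lower for 7 of 10 tested under LPS, where 1 was higher, and for 5 of 10 without LPS, where 2 were higher. Their part in the LPS and JSH-23 results was not tested.

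The Bcl2a1 genes encode A1, a short-lived pro-survival protein of hematopoietic cells, and lie as near-identical copies on chromosome 9. In the mouse genome GRCm38 (mm10) with GENCODE annotation, Bcl2a1b occupies chr9:89199209-89207827 on the plus strand, Bcl2a1d chr9:88723285-88731914 on the minus strand and Bcl2a1a chr9:88956900-88962419 on the plus strand. Their coding sequences of 519 bases differed at 6 positions between Bcl2a1b and Bcl2a1d (98.8% identity), at 11 between Bcl2a1a and Bcl2a1b (97.9%) and at 7 between Bcl2a1a and Bcl2a1d (98.7%). Of all stretches of 100 bases in the coding sequence of Bcl2a1d, 30.2% also occur unchanged in Bcl2a1b. The first 90 coding bases are shown because they hold 6 of the 12 coding positions at which the 3 copies differ, given in capitals. Within the coding sequence, only such positions tell the copies apart. The whole transcripts differ pairwise at 17 to 54 aligned positions, so reads outside the coding sequence can also separate them.
Bcl2a1a (chr9:88957051-88957140, plus strand): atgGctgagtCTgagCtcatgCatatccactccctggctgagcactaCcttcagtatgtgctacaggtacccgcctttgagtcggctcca
Bcl2a1b (chr9:89199360-89199449, plus strand): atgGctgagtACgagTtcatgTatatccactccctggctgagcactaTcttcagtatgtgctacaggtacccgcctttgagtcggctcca
Bcl2a1d (chr9:88731630-88731719, minus strand): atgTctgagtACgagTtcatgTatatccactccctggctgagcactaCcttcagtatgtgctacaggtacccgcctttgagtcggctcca

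Expected counts of Bcl2a1a, Bcl2a1b and Bcl2a1d were fractional in 12 of 12 libraries, which shows that RSEM divided some of their reads with other entries. The counts do not show whether these entries were the other copies or overlapping genes, so each single copy is an uncertain value. Bcl2a1b measured 487, 497 and 488 CPM in WT (a level per library size after TMM scaling, with no allowance for length) and 1220, 1231 and 1144 CPM in WTL. In WT + JSH23 it measured 452, 428 and 444 CPM, and in WTL + JSH23 823, 874 and 780 CPM. The groups were separate from each other, with LPS libraries high and the LPS libraries with JSH-23 in between. Bcl2a1b rose 2.44-fold with LPS (log2 1.29 ± 0.04 SE, adjusted p = 1.25e-16, edgeR) and 1.87-fold with LPS in the presence of JSH-23 (log2 0.90 ± 0.04). It was lower with JSH-23 under LPS (log2 -0.54 ± 0.04, adjusted p = 6.29e-10, edgeR) and, by less, without LPS (log2 -0.15 ± 0.04, adjusted p = 0.00562, edgeR).

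Bcl2a1d followed Bcl2a1b closely. It measured 312, 331 and 325 CPM in WT, 812, 809 and 742 CPM in WTL, 315, 298 and 317 CPM in WT + JSH23, and 575, 593 and 558 CPM in WTL + JSH23. The WT and WT + JSH23 libraries overlapped, while both LPS groups stood apart from them and from each other. The LPS change was 2.44-fold without JSH-23 (log2 1.29 ± 0.04, adjusted p = 1.13e-16, edgeR) and 1.86-fold with it (log2 0.89 ± 0.04). The 2 LPS changes differed by -0.40 ± 0.06 on the log2 scale for Bcl2a1d (adjusted p = 7.84e-05, edgeR) and by -0.38 ± 0.06 for Bcl2a1b (adjusted p = 0.00011).

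Of the other copies, Bcl2a1a rose 2.22-fold with LPS and 1.89-fold with LPS plus JSH-23, from 208 to 216 CPM in WT to 444 to 489 CPM in WTL. Bcl2a1c has a shorter coding sequence of 387 bases, of which 370 to 374 align to identical bases of the other copies. It had 17 to 60 counts per library and rose 2.41-fold and 2.07-fold. The TPM ratio of Bcl2a1b to Bcl2a1d was 1.65 ± 0.03 in WT, 1.64 ± 0.02 in WTL, 1.54 ± 0.02 in WT + JSH23 and 1.55 ± 0.04 in WTL + JSH23 (SD, n = 3). The ratio was thus the same with and without LPS within its spread and lower in the JSH-23 libraries, with no overlap. With the 4 genes summed before the fit, the change with JSH-23 alone was -0.12 (adjusted p = 0.0272, edgeR). Bcl2a1b overlaps the annotated protein-coding gene Gm29094 on the same strand, which had 94 to 312 counts per library, and Bcl2a1d overlaps the antisense gene Gm10634, with 47 to 100 counts.

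Bcl2l1 (chr2:152780668-152831728, minus strand) encodes BCL-XL, a pro-survival protein that binds most BH3-only proteins. It measured 33.7, 31.8 and 32.6 CPM in WT and 291, 284 and 262 CPM in WTL. In WT + JSH23 it measured 28.2, 31.4 and 34.0 CPM and in WTL + JSH23 168, 173 and 178 CPM. The 2 groups without LPS overlapped, all WTL libraries were the highest, and all WTL + JSH23 libraries lay between. Bcl2l1 rose 8.53-fold with LPS (log2 3.09 ± 0.06, adjusted p = 8.1e-21, edgeR) and 5.55-fold with LPS plus JSH-23 (log2 2.47 ± 0.06, adjusted p = 6.67e-19, edgeR). The difference between these changes was -0.62 ± 0.08 (adjusted p = 1.34e-05, edgeR). JSH-23 lowered Bcl2l1 to 0.619-fold under LPS (adjusted p = 1.96e-10, edgeR), while its value without LPS was 0.952-fold (adjusted p = 0.391, edgeR) with overlapping libraries.

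Mcl1 (chr3:95658788-95663176, plus strand) encodes a pro-survival protein with a very short half-life that many myeloid cells depend on. Its levels were 871, 882 and 865 CPM in WT, 801, 783 and 808 CPM in WTL, 743, 741 and 767 CPM in WT + JSH23 and 751, 755 and 720 CPM in WTL + JSH23. WT libraries were the highest and the JSH-23 libraries of both kinds overlapped each other. Mcl1 was lower with LPS by a small amount (0.913-fold, log2 -0.13 ± 0.03, adjusted p = 0.00185, edgeR) and lower with JSH-23 alone (0.860-fold, adjusted p = 1.72e-05, edgeR). The difference of its LPS changes was 0.11 ± 0.05 (adjusted p = 0.105, edgeR), and it passed at 0.21 with total counts, at 0.24 with TPM and at 0.14 without WTL + JSH23 replicate 3 (adjusted p = 0.038, edgeR). With JSH-23 present, its LPS change was -0.02 ± 0.03 (adjusted p = 0.707, edgeR), and with upper quartile scaling, total counts or TPM it was -0.10, -0.26 and -0.22 and passed. Under LPS, the JSH-23 difference of Mcl1 was -0.10 ± 0.03 (adjusted p = 0.0147, edgeR), which became 0.02 and did not pass when libraries were scaled by total counts or when TPM was used. It also did not pass without the low-count filter (adjusted p = 0.0613, edgeR), with the 2 groups alone (0.0633) or without WTL + JSH23 replicate 3 (0.056).

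Bcl2 (chr1:106538178-106714274, minus strand), the founding member of the family, was the least abundant, with 97 to 258 counts per library. It measured 5.38, 7.34 and 5.74 CPM in WT, 4.41, 3.73 and 4.47 CPM in WTL, 4.67, 5.75 and 6.50 CPM in WT + JSH23, and 3.93, 3.98 and 4.84 CPM in WTL + JSH23. WT and WTL libraries did not overlap, whereas WT + JSH23 and WTL + JSH23 libraries did. Bcl2 was 0.677-fold with LPS (log2 -0.56 ± 0.14, adjusted p = 0.00163, edgeR) and 0.753-fold with LPS plus JSH-23 (log2 -0.41 ± 0.15, adjusted p = 0.022, edgeR). The second change passed with all libraries, but its adjusted p was 0.0565, 0.127, 0.0895 and 0.0707 (edgeR) without WT + JSH23 replicate 2, WT + JSH23 replicate 3, WTL + JSH23 replicate 1 and WTL + JSH23 replicate 2. Neither JSH-23 comparison passed for Bcl2.

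**Figure D2:**
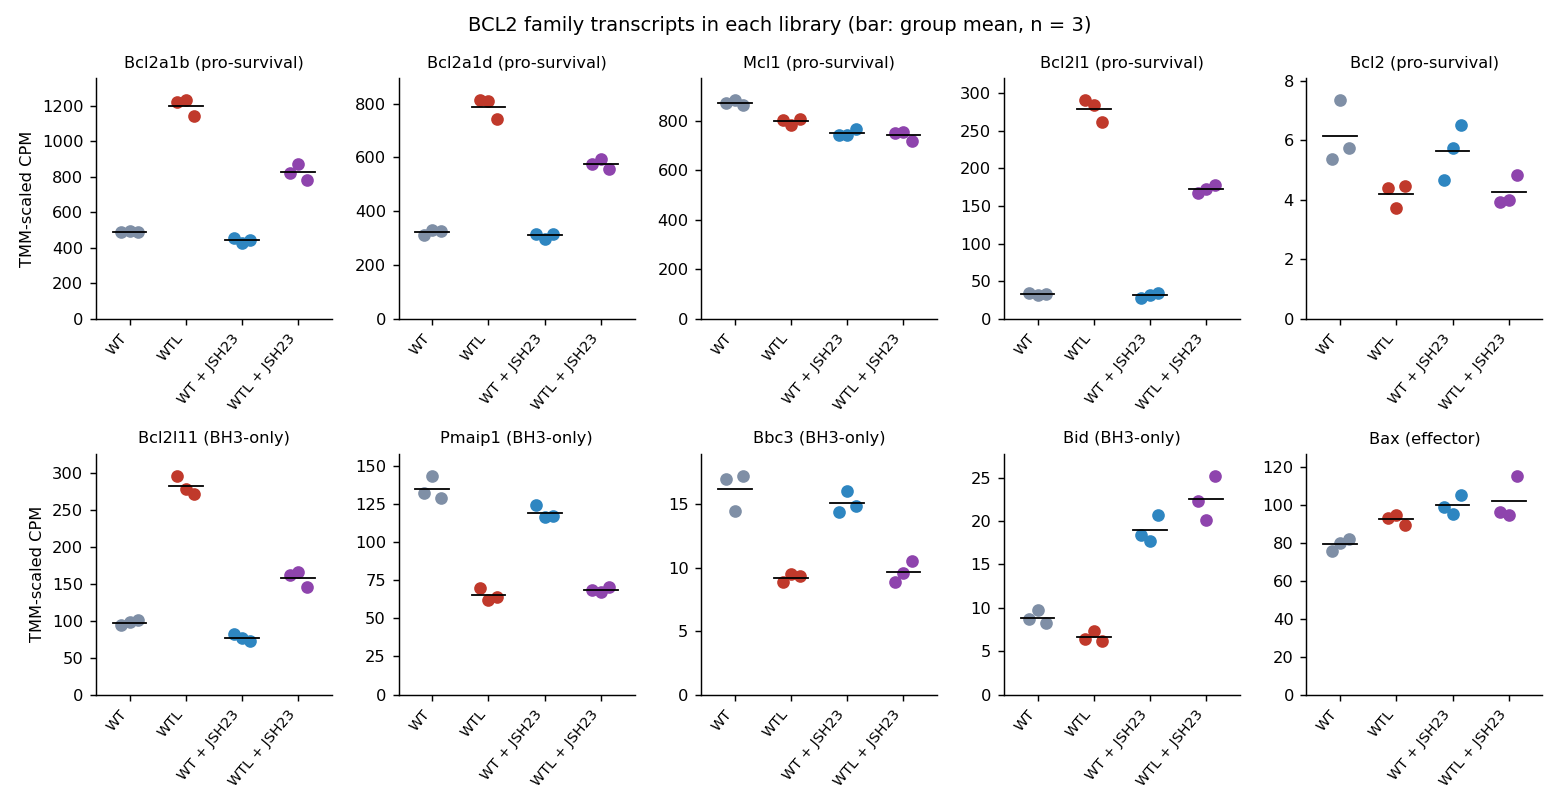
TMM-scaled CPM (y axis, from 0) of the 10 members in each library of the 4 groups (x axis), with points for libraries and a bar for the group mean (n = 3). Bcl2l1, both Bcl2a1 genes and Bcl2l11 are highest in WTL with WTL + JSH23 in between, Pmaip1 and Bbc3 are low in both LPS groups, and Bid is high in both JSH-23 groups.

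Among the BH3-only genes, Bcl2l11 (chr2:128126038-128162547, plus strand) encodes BIM, which binds all pro-survival proteins. It measured 94.1, 98.0 and 100.5 CPM in WT, 296, 279 and 273 CPM in WTL, 81.4, 77.0 and 72.8 CPM in WT + JSH23, and 162, 167 and 146 CPM in WTL + JSH23. None of the 4 groups overlapped. Bcl2l11 rose 2.90-fold with LPS (log2 1.54 ± 0.05, adjusted p = 1.26e-16, edgeR) and 2.05-fold with LPS plus JSH-23 (log2 1.04 ± 0.05, adjusted p = 2.8e-13, edgeR). The difference between these changes was -0.50 ± 0.07 (adjusted p = 5.37e-05, edgeR). JSH-23 lowered it to 0.560-fold under LPS and to 0.791-fold without LPS (adjusted p = 8.34e-12 and 1.68e-05, edgeR).

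Pmaip1, on chromosome 18, encodes NOXA, a BH3-only protein that binds MCL1 and A1. Its levels were 133, 144 and 129 CPM in WT, 70.1, 62.1 and 63.8 CPM in WTL, 125, 116 and 118 CPM in WT + JSH23, and 69.0, 67.2 and 70.5 CPM in WTL + JSH23. The LPS libraries were all below the others and overlapped each other. Pmaip1 fell to 0.483-fold with LPS (log2 -1.05 ± 0.05, adjusted p = 7.25e-14, edgeR) and to 0.576-fold with LPS plus JSH-23 (log2 -0.80 ± 0.05). The 2 changes differed by 0.25 ± 0.07 (adjusted p = 0.0162, edgeR), which rested in part on single libraries (adjusted p = 0.0502 without WT replicate 5 and 0.0651 without WTL replicate 5). JSH-23 alone gave 0.885-fold (adjusted p = 0.00491, edgeR), and JSH-23 under LPS gave a log2 difference of 0.08 ± 0.05 (adjusted p = 0.241, edgeR), which was 0.21 and passed with total counts.

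Bbc3 (chr7:16308393-16318205, plus strand) encodes PUMA, a p53 target that binds all pro-survival proteins. It measured 17.0, 14.5 and 17.2 CPM in WT, 8.83, 9.47 and 9.30 CPM in WTL, 14.3, 16.0 and 14.8 CPM in WT + JSH23, and 8.86, 9.59 and 10.5 CPM in WTL + JSH23. Both LPS groups lay below both groups without LPS, and JSH-23 libraries overlapped with their counterparts. Bbc3 fell to 0.569-fold with LPS (log2 -0.81 ± 0.08, adjusted p = 2.01e-08, edgeR) and to 0.639-fold with LPS plus JSH-23 (log2 -0.65 ± 0.08, adjusted p = 1.16e-06, edgeR). The difference between them was 0.17 ± 0.12 (adjusted p = 0.367, edgeR).

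Bid (chr6:120891930-120916853, minus strand) encodes a BH3-only protein that caspase-8 cleaves, linking death receptors to mitochondria. It measured 8.66, 9.68 and 8.24 CPM in WT, 6.43, 7.27 and 6.13 CPM in WTL, 18.4, 17.7 and 20.7 CPM in WT + JSH23, and 22.2, 20.1 and 25.2 CPM in WTL + JSH23. All 6 JSH-23 libraries were above all 6 libraries without it. With JSH-23, Bid rose 3.38-fold under LPS (log2 1.76 ± 0.10, adjusted p = 2.55e-12, edgeR) and 2.13-fold without LPS (log2 1.09 ± 0.09, adjusted p = 1.8e-09, edgeR). Its LPS change was -0.42 ± 0.11 without JSH-23 (0.749-fold, adjusted p = 0.00166, edgeR). With JSH-23 that change was 0.25 ± 0.08 (1.19-fold, adjusted p = 0.0132, edgeR) with overlapping libraries.

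The LPS changes of Bid differed by 0.67 ± 0.13 (adjusted p = 0.00141, edgeR). Its small rise with LPS plus JSH-23 did not pass with upper quartile scaling (0.17), total counts (0.01) or TPM (0.09), nor without WT + JSH23 replicate 1 (0.23), WT + JSH23 replicate 2 (0.21) or WTL + JSH23 replicate 3 (0.17). Bid had 133 to 628 counts per library, fractional in 8 of 12. It lies across Bcl2l13 on the opposite strand, and whether the counting used strand is not stated. Bcl2l13 had a JSH-23 difference of 0.23 under LPS and -0.10 without LPS, where the second did not pass (adjusted p = 0.192, edgeR).

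Bax (chr7:45461697-45466898, minus strand) encodes the effector that permeabilizes mitochondria together with BAK. It measured 75.7, 79.9 and 82.1 CPM in WT, 93.2, 94.7 and 89.4 CPM in WTL, 99.2, 95.0 and 105 CPM in WT + JSH23, and 96.3, 94.5 and 115 CPM in WTL + JSH23. WT libraries were the lowest, and the 3 other groups lay near each other. Bax was 1.26-fold with JSH-23 alone (log2 0.33 ± 0.06, adjusted p = 9.88e-05, edgeR). Its LPS change of 0.22 ± 0.06 (adjusted p = 0.00276, edgeR) turned to -0.11 and did not pass with total counts or TPM. With JSH-23 present its LPS change was 0.03 ± 0.06 (adjusted p = 0.709, edgeR), and with total counts or TPM it was -0.21 and -0.17 and passed. Under LPS, Bax had a JSH-23 difference of 0.14 ± 0.06 (adjusted p = 0.0627, edgeR), which passed under 8 of 22 alternatives, including without WTL + JSH23 replicate 1 (0.18) and without WTL + JSH23 replicate 2 (0.19). Both of these fits keep WTL + JSH23 replicate 3, the highest library at 115 CPM, and without that library the difference did not pass. Leaving out 1 library gave values from 0.046 to 0.19. The difference of its LPS changes was -0.20 ± 0.09 (adjusted p = 0.123, edgeR), and -0.29 without WTL + JSH23 replicate 3 (adjusted p = 0.00229, edgeR). Bax overlaps Gm45808 on the same strand, which had 0 to 12 counts. Bak1, the gene of the second effector, had LPS changes of -0.08 ± 0.04 and -0.06 ± 0.04, neither of which passed, and was 0.803-fold with JSH-23 alone and 0.813-fold with JSH-23 under LPS (adjusted p = 5.45e-07 and 1.21e-06, edgeR).

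The 2 LPS changes were measured in separate libraries and can be set side by side. The 4 members past 2-fold upward without JSH-23 kept a higher value with LPS in its presence, each with a smaller change, and the test of that difference passed for each of them. Of the members that were lower with LPS, Bcl2, Bbc3 and Pmaip1 remained lower with JSH-23, with a difference that passed for Pmaip1 and did not pass for Bcl2 (0.15 ± 0.20, adjusted p = 0.673, edgeR) or Bbc3. Bid was the single member for which the 2 changes both passed with opposite signs, subject to the alternatives named above.

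**Figure D3:**
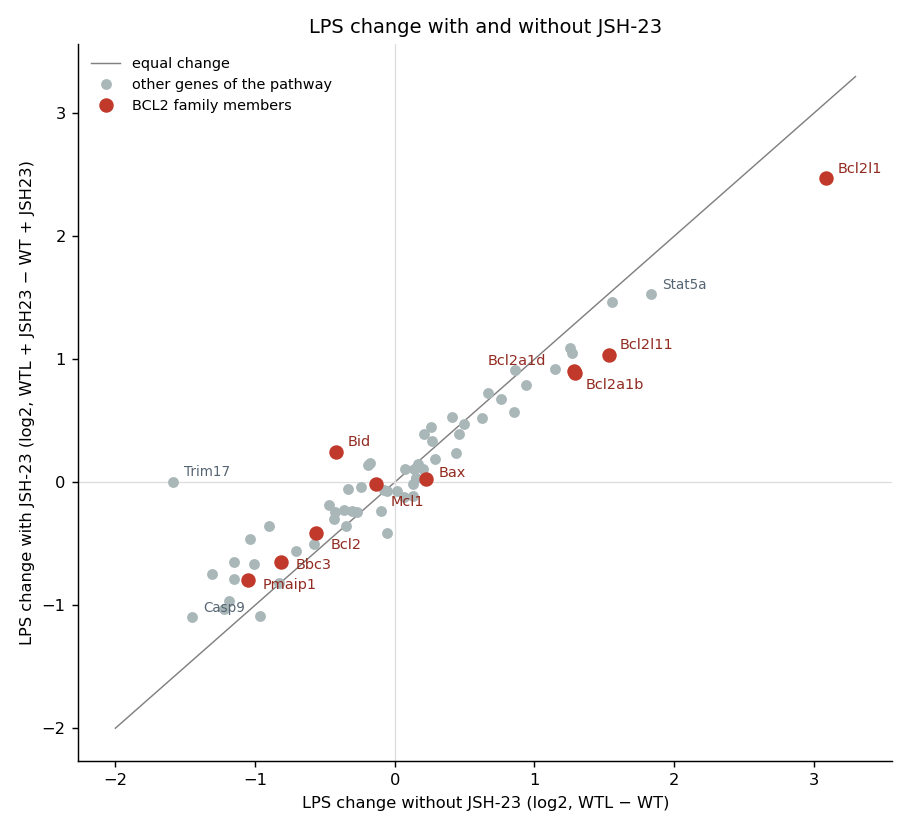
Log2 change with LPS in the presence of JSH-23 (y axis) against the change without it (x axis), for the 10 members (red) and the other pathway genes tested (grey), with a line of equal change. Bcl2l1, Bcl2l11 and both Bcl2a1 genes lie below the line on the right, and Bid lies above it in the upper left; Bax, near 0, moves to the lower left (-0.11 and -0.21) when libraries are scaled by total counts.

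Within each library, the make-up of the pro-survival transcripts was expressed as shares of the summed TPM of the 4 Bcl2a1 genes, Mcl1, Bcl2l1, Bcl2l2 and Bcl2. The Bcl2a1 genes held 85.2 ± 0.15% in WT, 91.1 ± 0.33% in WTL, 85.7 ± 0.47% in WT + JSH23 and 89.8 ± 0.29% in WTL + JSH23 (SD, n = 3). Mcl1 held 13.2 ± 0.08% in WT and 5.46 ± 0.31% in WTL, and 12.5 ± 0.33% and 6.96 ± 0.15% in the matching JSH-23 groups. Bcl2l1 held 0.818 ± 0.063% in WT and 2.95 ± 0.01% in WTL, and 0.817 ± 0.068% and 2.52 ± 0.14% in the JSH-23 groups. For these 3 the LPS libraries were separate from the libraries without LPS. The TPM ratio of Mcl1 to Bcl2l1 was 16.2 ± 1.27 in WT, 1.85 ± 0.11 in WTL, 15.4 ± 0.96 in WT + JSH23 and 2.76 ± 0.11 in WTL + JSH23. Bcl2 held at most 0.0509% in any library.

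The transcripts of the 4 BH3-only members were divided differently. Pmaip1 held 57.1 ± 1.46% of the summed TPM of the 4 BH3-only members in WT and 24.6 ± 0.38% in WTL. Bcl2l11 held 25.3 ± 0.91% in WT and 65.6 ± 0.51% in WTL. In WT + JSH23, Pmaip1 held 54.3 ± 1.06% and Bcl2l11 21.7 ± 1.05%, and in WTL + JSH23 31.4 ± 0.30% and 45.8 ± 3.16%. Among these 4 members, the leading transcript was thus Pmaip1 in every library without LPS and Bcl2l11 in every library with LPS. Other BH3-only genes, such as Bmf, were not included. Bid held 4.75 ± 0.30% in WT, 3.46 ± 0.84% in WTL, 11.4 ± 1.36% in WT + JSH23 and 14.1 ± 2.08% in WTL + JSH23.

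The summed TPM of the 4 BH3-only members was 156 ± 3.51 in WT, 139 ± 8.30 in WTL, 144 ± 3.25 in WT + JSH23 and 125 ± 2.61 in WTL + JSH23. The summed pro-survival TPM was 3365 ± 15.7, 5916 ± 132, 3058 ± 59.6 and 4715 ± 234 in the same order. The pro-survival sum takes in the non-members Bcl2a1a, Bcl2a1c and Bcl2l2, whereas the BH3-only sum leaves out other BH3-only genes. The ratio of the pro-survival sum to the BH3-only sum was 21.6 ± 0.40 in WT and 42.8 ± 2.28 in WTL. It was 21.2 ± 0.51 in WT + JSH23 and 37.8 ± 2.23 in WTL + JSH23. In both settings the LPS libraries were separate from those without LPS, while WTL + JSH23 libraries reached 35.7 to 40.1 and WTL libraries 40.8 to 45.3. These are transcript levels, and protein was not measured in these files.

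**Figure D4:**
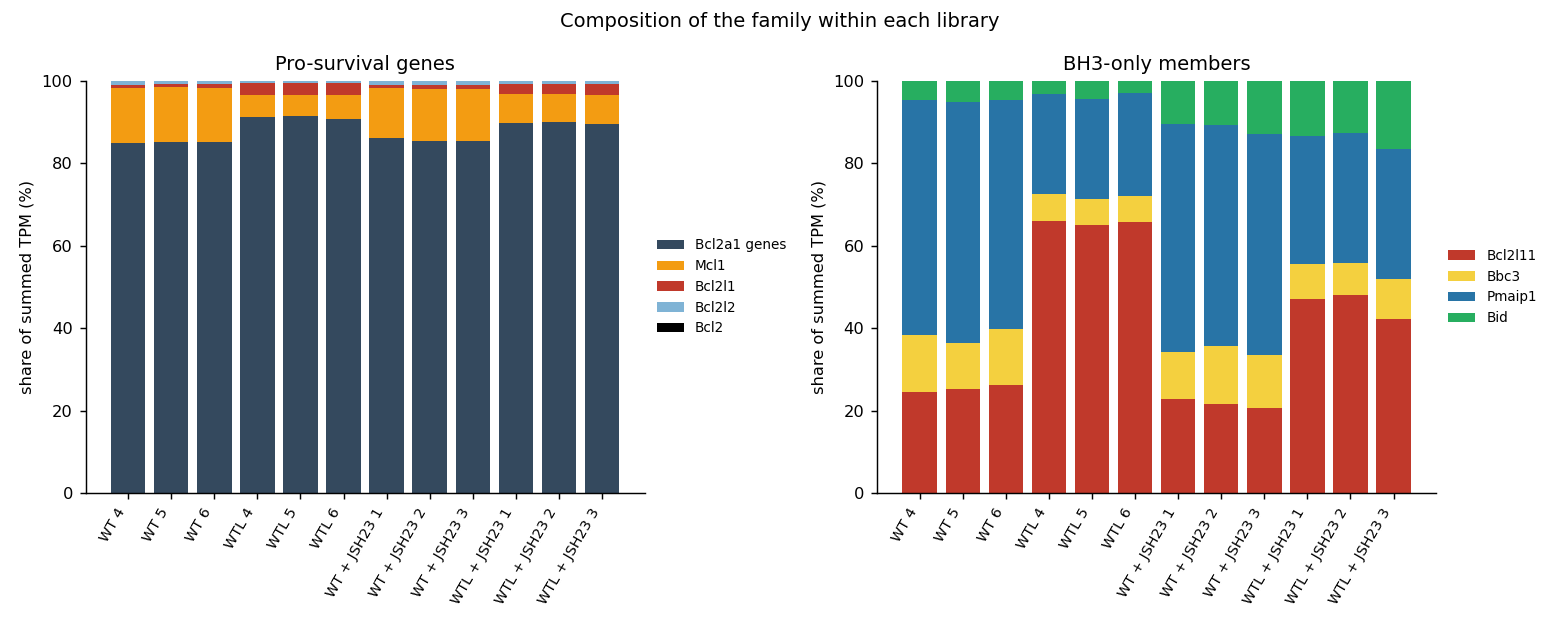
Share of the summed TPM (y axis, %) in each of the 12 libraries (x axis) held by each pro-survival gene (left) and each BH3-only member (right). Bcl2a1 genes hold 85.0 to 91.4% of the pro-survival TPM in all libraries, and Bcl2l11 (red) goes from 24.5 to 26.3% in WT to 65.0 to 66.0% in WTL on the right.

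The rest of the pathway was described with 9 lists of 64 genes, of which 58 were tested, and the 6 below the filter were Bcl2l10, Bik, Hrk, Bcl2l15, Fasl and Trp73. With LPS alone, 25 rose and 25 fell, beside 31.0% and 34.7% of all genes, and with LPS plus JSH-23, 23 rose and 20 fell, beside 27.4% and 27.1%. With JSH-23 under LPS, 12 were higher and 22 lower, beside 24.5% and 24.2%, and with JSH-23 alone 6 were higher and 24 lower, beside 18.8% and 22.1%. The medians of the log2 values were -0.02, -0.03, -0.07 and -0.12 in these 4 comparisons, beside -0.05, -0.02, 0.02 and -0.01 over all genes. Past 2-fold, 5 rose and 8 fell with LPS alone, beside 7.36% and 9.09%. The counts of the single lists below stand against these same shares.

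Other multidomain family genes and BCL2-like genes gave mixed values. Of 5 multidomain genes tested, 3 rose with LPS, namely Bcl2a1a, Bcl2a1c and Bcl2l2, the gene of BCL-W (log2 0.46 ± 0.05, and 0.035 with TPM, which did not pass). Bok, which encodes a BAX-like protein, had 3 to 5 counts per WT library, 0 to 2 per WTL library, 9 to 24 per WT + JSH23 library and 7 to 8 per WTL + JSH23 library. It passed as higher with JSH-23 alone (adjusted p = 0.000957, edgeR) and under LPS (adjusted p = 0.00772, edgeR), the latter not without WTL replicate 5 (adjusted p = 0.0521, edgeR). Bcl2l14, a BCL2-like gene, fell to 0.429-fold with LPS and to 0.490-fold with LPS plus JSH-23. All 5 further BH3-only or BH3-like genes tested changed with LPS alone, 4 of them downward. Among these Bmf, which encodes a BH3-only protein tied to the cytoskeleton, was chosen after its values were seen and fell by 0.90 on the log2 scale with LPS and by 0.35 with LPS plus JSH-23, a difference of 0.54 ± 0.09 (adjusted p = 0.000159, edgeR).

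Downstream of mitochondria, 3 of 7 genes of the mitochondrial release and apoptosome list fell with LPS and 2 rose. Casp9, the initiator caspase of the apoptosome, fell to 0.366-fold with LPS (log2 -1.45 ± 0.07, adjusted p = 2.77e-14, edgeR) and to 0.468-fold with LPS plus JSH-23, a difference of 0.35 ± 0.09 (adjusted p = 0.0114, edgeR, and 0.0522 without WTL replicate 5). Endog, a mitochondrial nuclease, fell to 0.450-fold from 72 to 89 counts per WT library. Of 5 other caspase genes 4 fell with LPS, with a median of -0.35, and 1 rose. Of 5 inhibitors of apoptosis 3 rose and 2 fell with LPS, and all 5 were lower with JSH-23 alone, where 22.1% of all genes were lower. Birc5, which encodes survivin and is known as a gene of dividing cells, fell to 0.488-fold with LPS.

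In the death receptor list, Cflar, which encodes the caspase-8 inhibitor FLIP, rose 2.94-fold with LPS and 2.76-fold with LPS plus JSH-23, and the difference between these did not pass (-0.09 ± 0.05, adjusted p = 0.253, edgeR). Tnfsf10, the gene of the death ligand TRAIL, was lower with JSH-23 both alone (0.300-fold) and under LPS (0.276-fold), and fell by 0.96 on the log2 scale with LPS. Of 6 genes in the list on turnover of MCL1 and BIM, Trim17, a ubiquitin ligase for MCL1 with 4 to 25 counts per library, passed 2-fold (0.333-fold with LPS). It was higher with JSH-23 under LPS (2.84-fold), a value that did not pass without WTL replicate 5, without WTL + JSH23 replicate 1 or on log2(TPM + 1).

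The transcription factors known to act on the members also moved. Stat5a, which acts downstream of GM-CSF, rose 3.57-fold with LPS and 2.89-fold with LPS plus JSH-23, and Nfkb1, which encodes an NF-κB subunit, rose 2.38-fold and 2.14-fold. Foxo3, a known activator of Bcl2l11 and Bbc3, fell to 0.450-fold with LPS and to 0.636-fold with LPS plus JSH-23, a difference of 0.50 ± 0.09 (adjusted p = 0.00063, edgeR). E2f1 fell to 0.403-fold and 0.598-fold, and Myc to 0.496-fold and 0.632-fold. Atf4, a factor of the integrated stress response, was higher with JSH-23 alone (1.85-fold, adjusted p = 6.4e-12, edgeR) and under LPS (2.11-fold, adjusted p = 2.23e-13, edgeR). Its LPS change of 0.26 without JSH-23 became -0.07 with total counts.

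The promoters of the members were searched for motifs of NF-κB, FOXO, STAT5 and ATF4. RefSeq promoter windows of 300 bases on GRCm38 (250 before to 50 after a transcript start) were found for 9 of 10 members, in 14 windows, and the missing entry was Pmaip1. The NF-κB motif GGNNTTTCC, on either strand, occurred in 3 of the 14 windows, those of Bcl2l1, Mcl1 and Bbc3, and in 5.82% of all 32851 windows. The FOXO motif GTAAACA occurred in 2 of the 14, those of Bcl2l11 and Bbc3, and in 3.65% of all. The STAT5 motif TTCNNNGAA and the ATF4 motif TGATGNAAT occurred in 0 of the 14, against 8.30% and 0.96% of all. The matches are shown with the motif in capitals, the Bcl2l1 window holds 2 matches that do not overlap, and no NF-κB match shown overlaps a FOXO match.
Bcl2l1, NF-κB (chr2:152830908-152830937, minus strand): tcGGAAAAACCcgggagtGGTCTTTCCgaa
Mcl1, NF-κB (chr3:95658683-95658712, plus strand): ccagccctccGGAAACGCCcgcccctttcc
Bbc3, NF-κB (chr7:16309437-16309466, plus strand): ctggctgccgGGAAACCCCccgcgccgagg
Bcl2l11, FOXO (chr2:128125801-128125830, plus strand): agacactaggGTAAACAcgccggggtgggc
Bbc3, FOXO (chr7:16310084-16310113, plus strand): ctggcgggttTGTTTACaaacaatggggtt

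The 2 matches of Bcl2l1 lie 194 to 218 bases before a transcript start, in a stretch that is exonic in other transcripts of the gene. Both Bbc3 stretches lie inside the annotated gene (chr7:16308393-16318205), ahead of transcript starts within it and not upstream of the whole gene. Bcl2l1 had the largest LPS change of the members, whereas Mcl1 and Bbc3, which also hold the NF-κB letters, were lower with LPS. No match of this motif was found in the windows of Bcl2a1b and Bcl2a1d, which rose with LPS. A match describes letters in a window, and its absence says only that these letters are not there.

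For the 6 members whose group means of log2 CPM spanned more than 1, the 3 protein-coding genes outside the lists with the most similar values over the 12 libraries were identified by Pearson's r, as a description. For Bcl2l1 they were Dennd5a, Clic4 and Zc3h12a, which encodes an RNase that restrains inflammatory transcripts (r = 0.999 each). For Bcl2a1b they were Btla, an inhibitory receptor gene, Lztfl1 and Marcksl1 (r = 0.997 to 0.998), and for Bcl2a1d Abracl, Tank, an adaptor gene of TRAF signaling, and Kpna3 (r = 0.998 each). For Bcl2l11 they were Ufm1, Stard7 and Mtpn (r = 0.997 to 0.998), and for Pmaip1 Prcp, Fam117a and Csgalnact2 (r = 0.992 to 0.993). For Bid they were 2010111I01Rik, Vwf and Pafah2 (r = 0.990 to 0.992). All these values share the 4 treatments and the library scaling.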

How the data were processed

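RNA-seq of 12 BMDC libraries in 4 groups was used as deposited. Per the labels and the study's methods, the authors trimmed reads with Trim Galore, aligned them to mm10 with STAR (2.6.0c in the submitters' processing notes) and quantified GENCODE genes with RSEM. The release is not given in the sources used here, and symbols, coordinates and overlaps were taken from GENCODE M21 on GRCm38 by gene identifier without version. The authors' deposited expected counts per gene are estimated counts that divide shared reads, and the authors' deposited TPM values are scaled to transcript length and library. The labels name a ribosomal RNA depletion kit and the paper a poly(A) kit, which was not settled.

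Expected counts were rounded and tested with edgeR 4.0.16 (R 4.3.3): filterByExpr (14357 genes kept), TMM scaling, 1 mean per group over all 12 libraries (8 residual degrees of freedom), glmQLFit and glmQLFTest, with Benjamini-Hochberg adjustment over all genes tested. Passing means an adjusted p under 0.05, and 2-fold is stated besides. TMM factors were 1.08 to 1.12 without LPS and 0.859 to 0.956 with LPS. Levels between genes are compared in TPM only. Of 2 gene identifiers named Ddit3, the one at 0 in all libraries was left out. The members and lists were chosen with earlier results of these data known. All 10 members are named, with pathway genes that passed past 2-fold in any pairwise comparison, plus Bcl2a1a, Bcl2a1c and Bak1. Bmf, Bcl2l2 and Bcl2l13 were named after their values were seen. The fit was tested on simulated counts in which few genes changed, as many upward as downward, in WTL only. In the data 65.7% of genes passed with LPS alone, so the simulation does not bear on the choice of scaling. Alternatives were RLE, upper quartile and total count scaling, other filters, DESeq2 1.42.0, limma 3.58.1 on log2(TPM + 1) and log2(TPM + 0.1), the 2 groups alone, a replicate block, summed Bcl2a1 genes and leaving out each library. Protein sequences were not used here.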

Additional observations from a re-analysis of the deposited data

Results flagged for a closer look

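For 6 members the LPS change in the presence of JSH-23 differed from the LPS change without it by the interaction test of edgeR. The differences on the log2 scale were -0.62 for Bcl2l1, -0.50 for Bcl2l11, -0.40 for Bcl2a1d, -0.38 for Bcl2a1b, 0.25 for Pmaip1 and 0.67 for Bid. Among the other genes named, the same test passed with differences of -0.23 for Bcl2a1a, -0.30 for Stat5a, -0.16 for Nfkb1, 0.35 for Casp9, 0.33 for Bcl2l13, 0.50 for Foxo3, 0.54 for Bmf and 0.57 for E2f1. Over all genes tested, 9.54% passed it with a higher and 8.44% with a lower value. With TPM, the differences of Bcl2a1a, Bcl2l13, Stat5a, Nfkb1 and E2f1 did not pass. Leaving out 1 library ended the call for Pmaip1 (0.21 without WT replicate 5, 0.22 without WTL replicate 5), for Casp9 (0.31 without WTL replicate 5) and for Bcl2a1a (-0.20 without WTL replicate 4 and without WT + JSH23 replicate 1). It ended the call for Nfkb1 without WT replicate 4 or 5, WTL replicate 4 or 5, WT + JSH23 replicate 3 or WTL + JSH23 replicate 1 (-0.14 to -0.16). It did so for E2f1 without any library other than WTL replicate 5, WT + JSH23 replicate 2 and WTL + JSH23 replicate 3 (0.38 to 0.58).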

How the results depend on the processing

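A threshold of 2-fold besides the adjusted p leaves 2361 of 9437 genes and 5 members in LPS without JSH-23, 1484 of 7828 genes and 2 members in LPS with the inhibitor, 1005 of 6994 genes and 1 member for JSH-23 under LPS, 771 of 5881 genes and 1 member for JSH-23 without LPS, and 192 of 2582 genes and 0 members for the difference of the LPS changes (edgeR). Leaving out 1 library gave 8822 to 9718 genes and 10 to 10 members, 7183 to 7827 and 6 to 8, 6191 to 6973 and 5 to 7, 5052 to 6230 and 6 to 6, and 1880 to 2838 and 5 to 8 in the same order.

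Scaling by total counts moved the median of all genes by -0.33 in LPS without JSH-23, -0.24 in LPS with the inhibitor, 0.13 for JSH-23 under LPS and 0.04 without LPS, and lowered the share of calls that were higher from 47.2% to 19.7% and from 50.3% to 20.9% in the 2 LPS comparisons. In JSH-23 under LPS that share went from 50.3% to 70.9%, and for the difference of the LPS changes from 53.1% to 79.3%; TPM gave like splits. Upper quartile scaling gave 37.7% for LPS with JSH-23, and RLE and DESeq2 43.8% and 41.1% for the difference. The TPM fits with log2(TPM + 1) called 1762 and with log2(TPM + 0.1) 1723 genes for the difference.

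Signs turned for Bax with LPS alone (-0.11 with total counts, -0.11 with either TPM fit), for Bax with LPS plus JSH-23 (-0.056 with upper quartile, -0.21 with total counts, -0.17 with either TPM fit, -0.0057 without WT + JSH23 replicate 2 and -0.066 to 0.080 over the fits without 1 library, the lowest without WTL + JSH23 replicate 3) and for Mcl1 there (-0.029 to 0.0051, the latter without WTL + JSH23 replicate 3). They also turned for Mcl1 with JSH-23 under LPS (0.024 with total counts, 0.020 and 0.021 with the TPM fits) and for Atf4 with LPS alone (-0.067 with total counts, -0.078 and -0.079 with the TPM fits). Bcl2l13 with LPS plus JSH-23 went to -0.084 with total counts. Bcl2 with JSH-23 under LPS, at 0.02, went to -0.0060 with RLE, -0.0069 with DESeq2, -0.069 without WTL replicate 5 and -0.078 to 0.078 over the fits without 1 library, the lowest without WTL + JSH23 replicate 3. Without WT replicate 5, Bcl2 went to 0.019 with JSH-23 alone (range over such fits -0.25 to 0.019) and to -0.0004 for the difference (-0.0004 to 0.27), and Bcl2l1 with JSH-23 alone went to 0.0009 without WT + JSH23 replicate 1 (-0.14 to 0.0009). None of the Bcl2 or Bcl2l1 values turning here had passed. The cause was not tested. The order of the members by TPM was the same by CPM per effective length in all 4 groups, which follows largely from the definitions and is no independent check. Bcl2l1, Bcl2a1b, Bcl2a1d and Bcl2l11 kept their direction and, apart from the 2-fold threshold, their call under all 23 other alternatives in both LPS comparisons, and under all 22 for JSH-23 under LPS and for the difference.

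Same-numbered WT and WTL libraries had correlations of their deviations of 0.021, 0.056 and 0.061, and JSH-23 libraries of 0.014, 0.023 and 0.056. All were positive and under 0.1. Libraries of unlike number gave -0.05 to -0.003 for WT and WTL and -0.056 to 0.035 with JSH-23. Not every library correlated best with its own number. These small values do not settle whether same-numbered libraries share mice or cultures. With a replicate block, 9539, 7960 and 2968 genes passed for the LPS comparisons and the difference, with 10, 8 and 7 members, where the added member was Bax (-0.20, adjusted p = 0.0275, edgeR). Libraries with and without JSH-23 share no numbers, and no paired analysis was possible for the JSH-23 comparisons because of that. Alternatives for the other named genes were chosen after seeing the data. Counting precision limits Bcl2, Bid and Bbc3 most, with 97 to 628 counts per library.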
